A study of Mus musculus with 2 samples.

Results

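The 10 genes described here encode AP-1 proteins and other immediate early proteins: Fos, Fosb, Jun, Junb, Jund, Egr1, Atf3, Btg2, Ier2 and Zfp36. The deposited gene lists name them in lower case, as fos, fosb, jun, junb, jund, egr1, atf3, btg2, ier2 and zfp36. They are 10 of the 8930 genes listed for both libraries of a single-cell RNA sequencing study of the newborn mouse kidney, and all 10 were listed in both. They were chosen with their values in these data known, for how they vary between cells and cell types, so what follows is a description with no test. The study compared whole kidney exposed to maternal diabetes, 1 library, with control whole kidney, 1 library, both from C57BL/6J mice at postnatal day 2. No genotype other than the strain is labelled for either group, and no label says how the mothers were made diabetic. The series' description names 1 kidney per group, pooled cells and males, so that the number of animals behind each library is unclear. Both kidneys were dissociated with warm trypsin, and the cells were frozen in serum with dimethyl sulfoxide before capture. Tissue that was not dissociated was not measured, so RNA present in the kidney and RNA made during handling cannot be told apart.

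Immediate early genes are transcribed within minutes of a growth factor, a stress or a mechanical stimulus, from promoters that need no newly made protein. AP-1 is a dimer of leucine zipper proteins in which a Fos family protein pairs with a Jun family protein, and Jun family proteins can also pair with each other. In kidney these genes are known as early responders to injury and mitogens, and in many tissues they are known to respond to enzymatic dissociation of living cells.

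Upstream sequence was looked up for the members in a RefSeq promoter table of build GRCm38.p6, where 8 of the 10 members matched, and 4 were chosen because they hold a motif of a factor family that acts on these genes or is encoded by them. Each line gives the 200 bases before the annotated start site, 5′ to 3′ on the gene's own strand. Capitals mark TGACNTCA in Jun and Btg2, which covers the site of CREB, ATF and some Jun dimers. In Fosb and Zfp36 they mark GCGGGGGCG, an EGR family site, and in Zfp36 also the CArG box of serum response factor. The stretches lie at chr4:95052223-95052422 for Jun, chr1:134079156-134079355 for Btg2, chr7:28379229-28379428 for Zfp36 and chr7:19310046-19310245 for Fosb, all on the minus strand.
Jun: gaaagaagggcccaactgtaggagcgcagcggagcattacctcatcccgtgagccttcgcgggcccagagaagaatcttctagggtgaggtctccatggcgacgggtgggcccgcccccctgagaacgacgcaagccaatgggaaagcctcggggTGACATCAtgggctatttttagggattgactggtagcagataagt
Btg2: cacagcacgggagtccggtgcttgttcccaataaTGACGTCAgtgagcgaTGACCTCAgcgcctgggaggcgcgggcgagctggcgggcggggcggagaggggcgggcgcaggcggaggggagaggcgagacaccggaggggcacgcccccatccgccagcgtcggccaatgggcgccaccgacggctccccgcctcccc
Zfp36: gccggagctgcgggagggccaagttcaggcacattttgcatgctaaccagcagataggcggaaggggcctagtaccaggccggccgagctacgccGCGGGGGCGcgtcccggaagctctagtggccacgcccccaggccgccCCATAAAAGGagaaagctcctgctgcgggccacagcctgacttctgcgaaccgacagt
Fosb: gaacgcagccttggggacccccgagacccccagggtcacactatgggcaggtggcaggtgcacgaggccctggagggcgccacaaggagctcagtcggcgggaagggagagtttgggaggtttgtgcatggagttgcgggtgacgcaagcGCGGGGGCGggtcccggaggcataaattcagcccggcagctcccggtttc
The motifs were chosen with earlier results known and were searched on both strands of 300-base windows that run from 250 bases before to 50 bases after each start. TGACNTCA was present in the windows of 2 of the 8 members, against 8.83% of 32851 promoters. Btg2 held it as TGACGTCA at -166 and again as TGACCTCA at -150, and Jun held it as TGACATCA at -45. GCGGGGGCG was present in 2 of the 8, Zfp36 at -105 and Fosb at -50, against 2.91% of promoters. The CArG box was present in 1 of the 8, Zfp36 at -58, against 1.63% of promoters. TGANTCA, which covers the classical AP-1 site, was present in 0 of the 8, against 7.81% of promoters. No motif searched overlapped another in these 4 promoters. A match describes letters in these windows only.

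In the GENCODE annotation of GRCm38, Fos (chr12:85473890-85477273) has 4 exons. Jun (chr4:95049034-95052222), Junb (chr8:84974484-84978718), Jund (chr8:70698949-70700616) and Ier2 (chr8:84661331-84662852) each have 1 exon in their coding transcript. Btg2 (chr1:134075170-134079120) has 2 exons, Atf3 (chr1:191170296-191218039) has 4, Fosb (chr7:19302696-19310051) has 3 to 5 and Zfp36 (chr7:28376784-28380253) has 1 or 2. The counts came from 3′ tags and do not separate transcripts of a gene.

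The exposed library held 5494 cells and 28381167 unique molecular identifiers (UMIs, 1 for each captured transcript), and the control library 9071 cells and 39442253 UMIs. Median depth over all genes listed for each library was 4251.5 UMIs per cell in the exposed and 3453 in the control library. To compare shares of cells, each cell was thinned at random to 2000 UMIs, which left 4965 exposed cells (90.4%) and 7587 control cells (83.6%). Mitochondrially encoded genes took 11.7% of exposed and 16.3% of control UMIs, and 14 cell barcodes occurred in both libraries. The authors' 10 clusters of each library were matched by markers into 10 classes, 1 cluster per library in each. The classes were nephron progenitor and differentiating nephron-like, podocyte-like, proximal tubule-like, distal tubule and intercalated cell-like, stroma-like, endothelium-like, macrophage and neutrophil-like, 2 mitochondria-rich tubule-like classes, and an unnamed class of nearly pure mitochondrial RNA. All p-values and standard errors are left out because each group had 1 library and no replicate check was possible. Intervals in parentheses are 95% limits for counting error only.

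The members were read in every named class, and the cells that held them differed widely by class. Of all UMIs of the shared genes before thinning, the members took 0.577% in the exposed and 0.447% in the control library. In the unnamed mitochondrial cluster, where the median cell was 98.0% mitochondrial in the exposed and 97.9% in the control library, the highest share of cells with a UMI of any member was 1.79% in the exposed and 3.32% in the control library. Median depths there were 3712.5 and 3341 UMIs, in the exposed and in the control library. In the exposed library 5 members had 0 of 168 cells there, which allows a share of up to 1.79%. No cell type measured here was fixed as one that should lack these genes, and the part of free RNA in the shares was not tested.

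**Figure D1:**
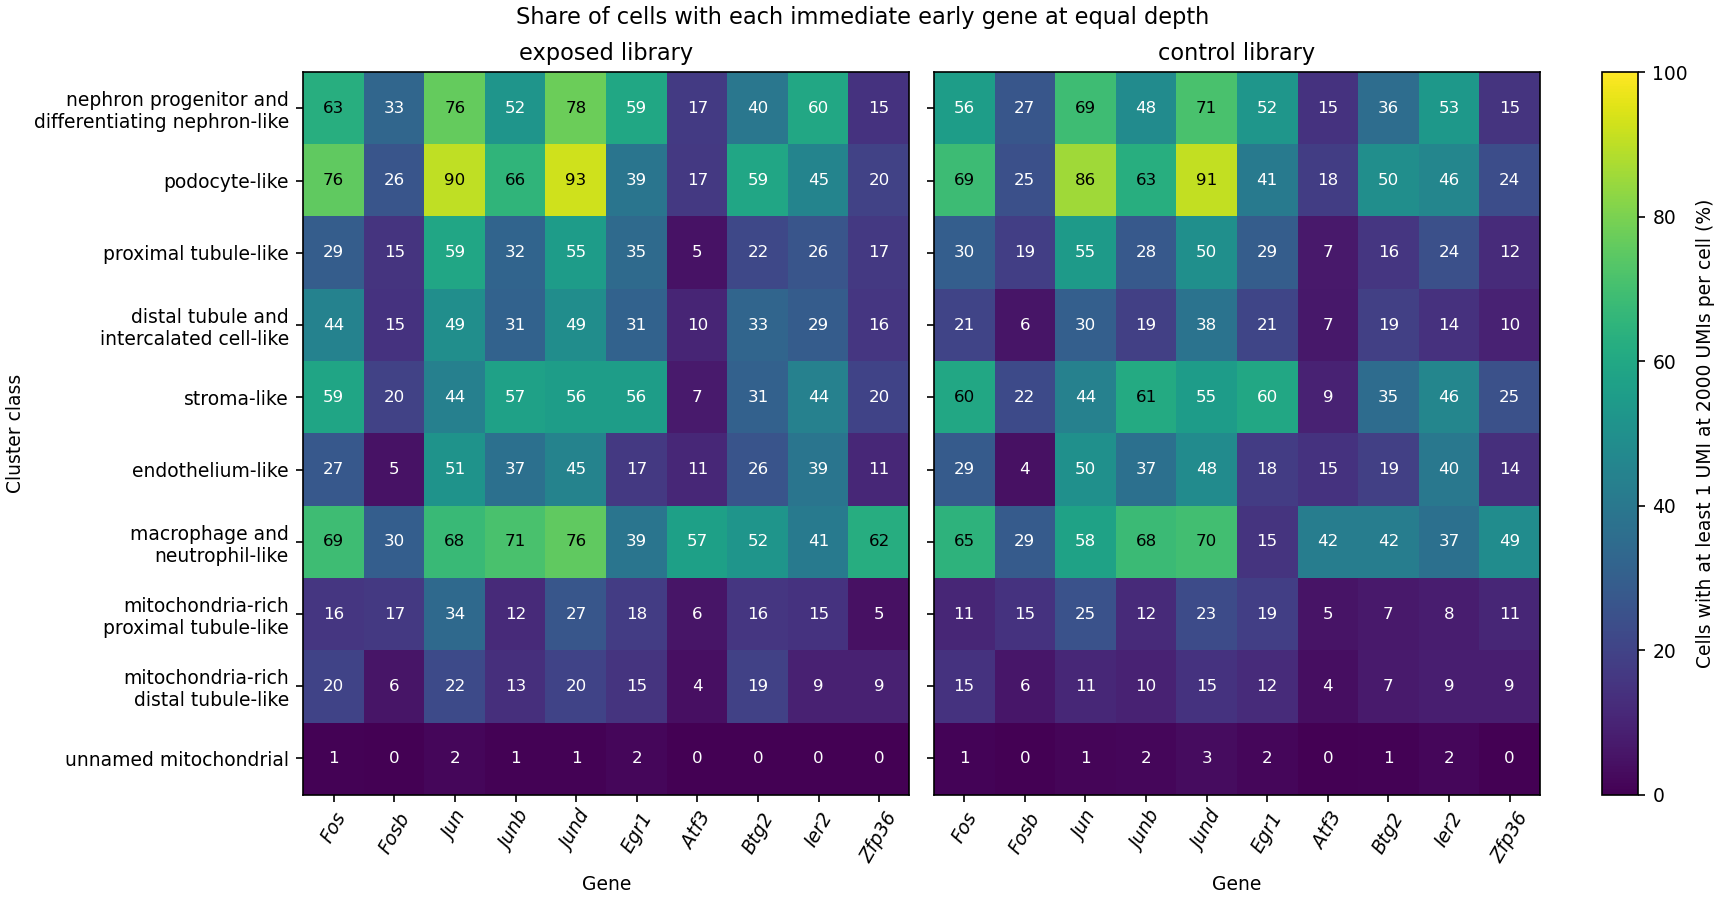
Share of cells with at least 1 UMI of each gene at 2000 UMIs per cell, in percent, for the exposed library (left) and the control library (right); rows are the 10 cluster classes and columns the 10 genes. Jun and Jund stand highest in the podocyte-like row, Atf3 and Zfp36 in the macrophage and neutrophil-like row, and the bottom row, the unnamed mitochondrial cluster, is near 0.

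Fos, the founding AP-1 partner of the Jun proteins, was highest in podocyte-like cells. It stood there at 2973 counts per 1000000 UMIs (CPM) in the exposed (2809 to 3145) and 2154 CPM in the control library, and 75.7% and 68.6% of cells held it. Leaving aside the mitochondria-rich and unnamed classes, its lowest class was proximal tubule-like in the exposed library, at 296 CPM, and distal tubule and intercalated cell-like in the control library, at 276 CPM. In the mitochondria-rich distal tubule-like class it stood at 200 CPM in the exposed and 110 CPM in the control library, and in the mitochondria-rich proximal tubule-like class at 134 CPM in the exposed and 107 CPM in the control library. Between these ends the exposed library ran from macrophage and neutrophil-like through nephron and stroma-like to distal and endothelium-like cells, and the macrophage and nephron values overlapped within their intervals.

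Fosb, a Fos paralog of the same leucine zipper family, showed no clear top class. In the exposed library the nephron cluster stood at 269 CPM, the macrophage and neutrophil-like cluster at 267 CPM and the podocyte-like cluster at 238 CPM, each overlapping the next. In the control library the order was macrophage and neutrophil-like at 240 CPM, nephron at 199 CPM and podocyte-like at 191 CPM, again with overlap. Endothelium-like cells were lowest of the named classes in both, with 4.69% of exposed and 4.36% of control cells holding a UMI.

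Jun, the AP-1 subunit that can also pair with itself, had the podocyte-like cluster on top at 3495 CPM in the exposed and 2983 CPM in the control library. A UMI was present in 90.3% of exposed and 85.8% of control podocyte-like cells at equal depth, and in 89.4% and 86.4% without thinning. The macrophage and neutrophil-like cluster came next at 2022 CPM in the exposed and 1372 CPM in the control library, and the nephron cluster after it at 1776 CPM and 1224 CPM. Those last classes overlapped within their intervals in the control library and not in the exposed library.

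Junb, a Jun family protein with weaker activating power than Jun on many targets, was highest in the macrophage and neutrophil-like cluster of the exposed library at 2067 CPM and in the podocyte-like cluster of the control library at 1659 CPM. In the exposed library these classes overlapped, with podocyte-like cells at 1888 CPM. Stroma-like cells stood above nephron cells, at 1145 against 730 CPM in the exposed library and 1067 against 558 CPM in the control library. Jund, the Jun family member that many resting cells keep on, was present in 92.7% of exposed and 90.7% of control podocyte-like cells. Leaving aside the mitochondria-rich and unnamed classes, its lowest share was 44.7%, in endothelium-like cells, in the exposed library and 38.0%, in distal tubule and intercalated cell-like cells, in the control library.

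Egr1, a zinc finger factor that binds GC-rich sites, was the only member with stroma-like cells on top by CPM in both libraries. It stood there at 783 CPM in the exposed and 783 CPM in the control library. Nephron cells followed at 729 CPM in the exposed library, overlapping the stroma-like value, and at 565 CPM in the control library, below it. By share nephron cells came first in the exposed library, with 59.4% of cells beside 55.8% of stroma-like cells, and no order is read from shares that go against the CPM. Atf3, a stress-induced leucine zipper factor that can pair with Jun proteins, was highest in macrophage and neutrophil-like cells, at 1200 CPM in the exposed and 700 CPM in the control library. The next class was far lower in both, nephron at 186 CPM in the exposed and podocyte-like at 196 CPM in the control library.

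Zfp36, which encodes a protein that binds AU-rich RNA and speeds the decay of early response and cytokine transcripts, shared that top class. It stood at 711 CPM in exposed and 544 CPM in control macrophage and neutrophil-like cells, followed by stroma-like cells at 152 and 192 CPM. Btg2, an antiproliferative p53 target that promotes mRNA deadenylation, was highest in podocyte-like cells at 898 CPM in the exposed and 654 CPM in the control library. Ier2, a nuclear protein of the immediate early response, had podocyte-like and nephron cells together on top. Their values were 789 and 782 CPM in the exposed library and 603 and 597 CPM in the control library, and they overlapped in both.

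Over all cells pooled, each of the 10 members was higher in the exposed library. The median log2 ratio of exposed over control, with 10 CPM added to each value, was 0.30 over the members and 0.06 over the 8900 genes with at least 50 UMIs in the 2 libraries together. The members summed to 5924 CPM in the exposed and 4684 CPM in the control library, a ratio of 1.26 (1.25 to 1.28). All 10 were higher, as were 68.1% of all genes, and 3 of 10 were higher by at least 1.25-fold, as were 2.38% of all genes. By the same fold 0 of 10 were lower, beside 0.944% of all genes. The members were chosen on this contrast, so the counts describe them only. With the classes weighted to the same mix in both libraries the median was 0.28.

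In the nephron progenitor and differentiating nephron-like cluster, the largest in both libraries, all 10 members stood higher in the exposed library. Fos was at 1336 CPM in the exposed and 976 CPM in the control library, and 62.8% of exposed and 55.8% of control cells held it. Jun was at 1776 CPM in the exposed and 1224 CPM in the control library, a ratio of 1.45 (1.40 to 1.50). A Jun UMI was present in 76.2% of 1871 exposed cells and 69.0% of 3058 control cells, a difference of 7.18 percentage points (4.63 to 9.69). Fos and Jun, the classical pair, thus differed in both level and share. Without thinning the Jun shares were 85.5% and 79.6%, and the Fos shares 74.8% and 66.8%, in exposed and in control cells.

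Fosb stood at 269 CPM in exposed and 199 CPM in control nephron cells, a ratio of 1.35 (1.24 to 1.47). Junb stood at 730 CPM in exposed and 558 CPM in control cells, a ratio of 1.31 (1.24 to 1.37). Jund stood at 1125 CPM in exposed and 873 CPM in control cells, a ratio of 1.29 (1.24 to 1.34). All 5 Fos and Jun family members thus lay between 1.29-fold and 1.45-fold. Egr1 stood at 729 CPM in exposed and 565 CPM in control cells, a ratio of 1.29. Ier2 stood at 782 CPM in exposed and 597 CPM in control cells, a ratio of 1.31. Btg2 stood at 415 CPM in exposed and 330 CPM in control cells, a ratio of 1.26. Atf3 and Zfp36 had the smallest ratios of the 10. Atf3 stood at 186 CPM in exposed and 156 CPM in control cells, a ratio of 1.19 (1.08 to 1.32). Zfp36 stood at 109 CPM in exposed and 101 CPM in control cells, a ratio whose limits of 0.955 to 1.23 include 1, and it was held by 14.7% of exposed and 15.0% of control cells.

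Across the nephron cluster the members' median log2 ratio was 0.37, with 0.00 over all 8257 genes measured there. All 10 were higher, beside 51.2% of all genes, and 7 of 10 by at least 1.25-fold on that log2 scale, beside 2.28% of all genes. By that fold 0 were lower, beside 5.33%. The exposed cluster also held less collecting duct and distal RNA, with 1 of 12 collecting duct markers passing the marker rule, against 5 of 12 in the control cluster. The summed collecting duct list stood at 683 CPM in the exposed and 1334 CPM in the control cluster, and the collecting duct water channel gene Aqp2 at 208 and 652 CPM. Without the cells that held 2 or more UMIs of collecting duct, distal tubule or intercalated cell markers, the median was 0.36 over 762 exposed and 1192 control cells, and the value of Zfp36 was 0.00. Erythroid markers summed to 18.6 CPM in the exposed and 181 CPM in the control cluster, and neutrophil markers to 73.2 and 191 CPM. Without cells holding 2 or more UMIs of macrophage or neutrophil markers the median was 0.38, and the part of erythroid RNA in the result was not tested.

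**Figure D2:**
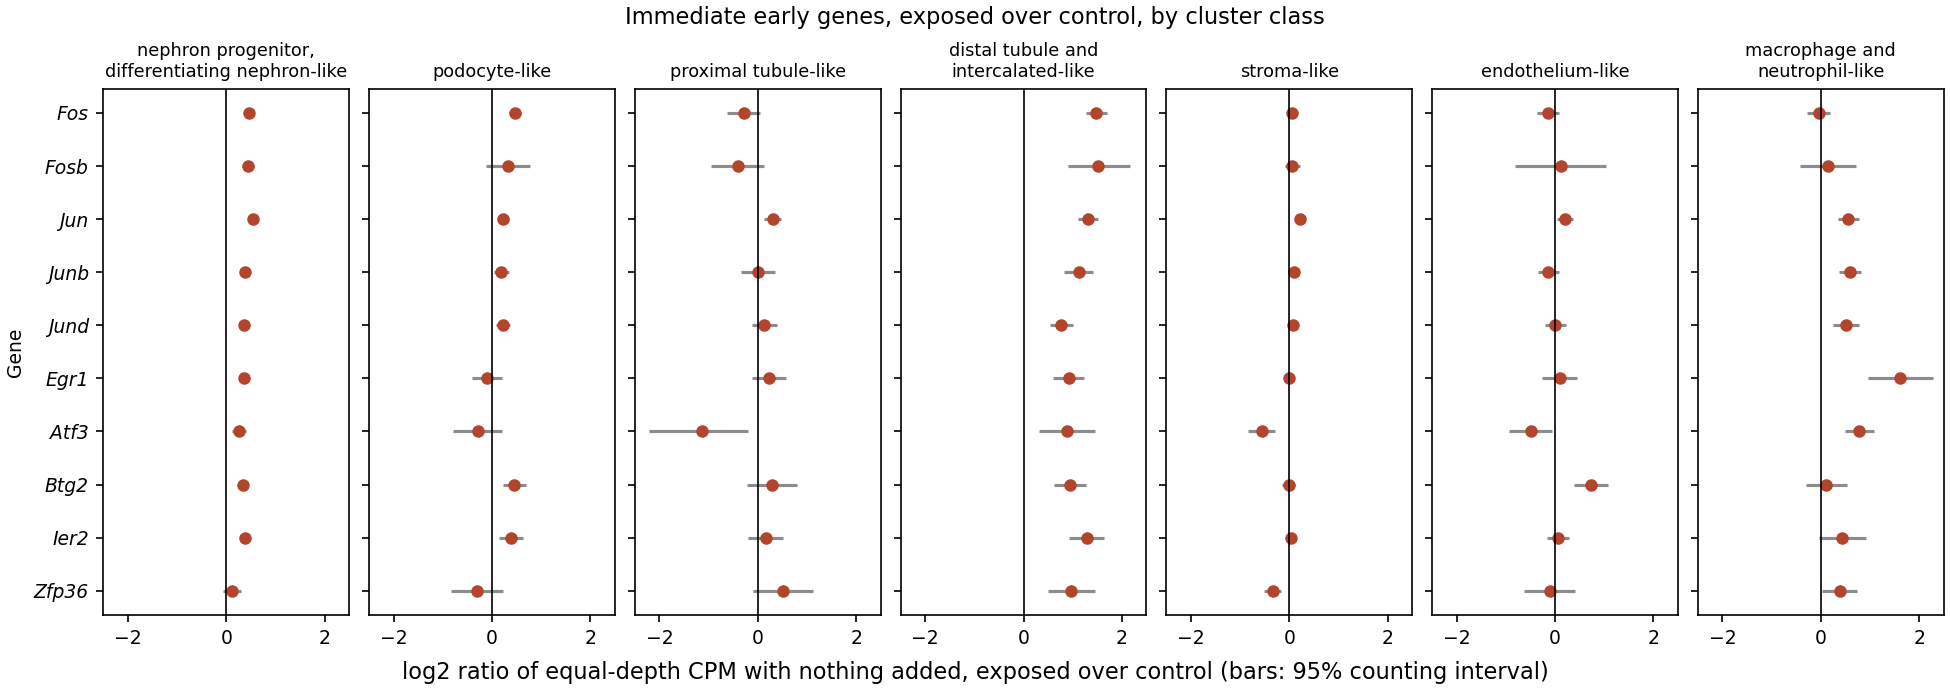
Log2 ratio of equal-depth CPM, exposed over control, with nothing added, for each of the 10 genes (rows) in 7 cluster classes (panels); points are the ratios, bars the 95% counting intervals, and the vertical line marks equal levels. All points lie right of the line in the nephron and distal panels and close to it in the stroma-like panel, except Atf3 and Zfp36, which lie left of it there.

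The distal tubule and intercalated cell-like clusters had the largest median ratio of the members among the 7 classes drawn in the plot of ratios. Fos stood at 770 CPM in the exposed and 276 CPM in the control cluster, a ratio of 2.79 (2.40 to 3.24), and was held by 44.4% of 369 exposed and 20.5% of 458 control cells. Ier2 stood at 266 CPM in the exposed and 109 CPM in the control cluster, a ratio of 2.43. Jund had the smallest ratio of the 10, 1.70, at 472 CPM in the exposed and 277 CPM in the control cluster. Every member was thus higher in the exposed cluster. The median log2 ratio of the members was 0.99, beside 0.13 over all 4588 genes there, and all 10 were higher by at least 1.25-fold, beside 27% of all genes. In the same clusters 65.6% of all genes were higher by any size and 8.39% lower by at least 1.25-fold. These clusters differed in make-up: Aqp2 stood at 1474 CPM in the exposed and 163 CPM in the control cluster, and the median cell was 14.9% mitochondrial in the exposed and 24.0% in the control cluster. Class make-up and group cannot be told apart here. Without cells over 25% mitochondrial UMIs the median was 1.10.

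In podocyte-like cells, 206 exposed and 204 control, the ratios of all 5 Fos and Jun family genes were above 1 while those of 3 other members were below 1. Before thinning the clusters held 254 exposed and 354 control cells, so the control cluster lost more of its cells to the depth limit. Fos was 1.38-fold higher (1.26 to 1.51) at 2973 CPM in exposed and 2154 CPM in control cells. Btg2 was 1.37-fold higher (1.17 to 1.61), Ier2 1.31-fold, Jun 1.17-fold, Jund 1.17-fold and Junb 1.14-fold. Fosb stood at 238 CPM in exposed and 191 CPM in control cells, a ratio whose limits include 1. Egr1 stood at 439 CPM in exposed and 473 CPM in control cells, Atf3 at 160 and 196 CPM, and Zfp36 at 141 and 174 CPM, and the limits of each of these ratios include 1. The members' median log2 ratio was 0.23, beside 0.02 over 2861 genes. Of the 10, 7 were higher, beside 52.6% of all genes, and 3 by at least 1.25-fold, beside 12.7% of all genes. By that fold 0 were lower, beside 12.2%. By equal-depth share 6 of the 10 were higher and 4 lower in exposed cells, and 1 difference, that of Btg2, had limits clear of equality. These counts by share were not made over all genes, so they describe the members only. Ier2 was held by 45.1% of exposed and 46.1% of control cells, against its CPM, so no order is read from its shares. The neutrophil markers S100a8 and S100a9 stood at 0 and 0 CPM in the exposed cluster and at 236 and 334 CPM in the control cluster. Without cells holding 2 or more UMIs of macrophage or neutrophil markers the median was 0.25, and over cells of 3000 to 6000 UMIs, 68 exposed and 65 control, it was 0.65.

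Macrophage and neutrophil-like cells were few, 90 exposed and 125 control, and the cluster mixes both types. Egr1 stood at 367 CPM in exposed and 120 CPM in control cells, a ratio of 3.06 (1.96 to 4.87), and was held by 38.9% of exposed and 15.2% of control cells. Atf3 stood at 1200 CPM in exposed and 700 CPM in control cells, a ratio of 1.71 (1.40 to 2.10). Junb was 1.51-fold higher and Jun 1.47-fold higher, and Fos stood at 1517 CPM in exposed and 1564 CPM in control cells. So 9 of 10 were higher, beside 47.8% of all genes, and 7 by at least 1.25-fold, beside 18.9% of 1164 genes. By that fold 0 were lower, beside 18.6%. Neutrophil markers summed to 16836 CPM in the exposed and 22381 CPM in the control cluster, and macrophage markers to 28888 and 30957 CPM. Single markers differed in direction, with S100a8 at 5628 CPM in the exposed and 7890 CPM in the control cluster and the macrophage gene C1qa at 4138 and 3580 CPM. The part of make-up in these ratios was not tested. The median of 0.47 was 0.20 when cells were thinned to 1000 UMIs, a depth that admits more cells.

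Stroma-like cells, which hold fibroblasts and their progenitors, had ratios between 0.989 and 1.16 for 8 of the 10 members. Fos stood at 1209 CPM in 1461 exposed cells and 1167 CPM in 2113 control cells, a ratio of 1.04 (0.992 to 1.08). Egr1 stood at 783 CPM in exposed and 783 CPM in control cells, a ratio of 1.00 (0.947 to 1.06). Jun, at 837 CPM in exposed and 721 CPM in control cells, had the highest ratio of the 10, 1.16 (1.10 to 1.23). At the other end Atf3 stood at 56.1 CPM in exposed and 82.8 CPM in control cells, a ratio of 0.678 (0.559 to 0.818). Zfp36 stood at 152 CPM in exposed and 192 CPM in control cells, a ratio of 0.791 (0.703 to 0.889).

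The stroma-like median log2 ratio of the members was 0.04, beside 0.02 over 7481 genes. By level 6 of the 10 were higher in the exposed library, beside 55.4% of all genes, with 0 higher by at least 1.25-fold, beside 4.69%, and 1, Atf3, lower by that much, beside 3.73%. By equal-depth share 9 of 10 members were held by fewer exposed than control stroma-like cells, a count not made over all genes. The limits of 5 of the differences were clear of equality, those of Junb, Egr1, Atf3, Btg2 and Zfp36. Atf3 and Zfp36 were lower by level and by share. Atf3 was held by 7.19% of exposed and 9.42% of control cells, and Zfp36 by 20.2% and 24.8%. Junb was held by 57.2% of exposed and 61.0% of control cells, while its CPM was 1145 in exposed and 1067 in control cells. No order is read from shares that, as for Junb, go against the CPM. Markers of pericytes, smooth muscle and renin cells summed to 3789 CPM in the exposed and 2614 CPM in the control stroma-like cluster, and 5 of 10 in the exposed and 4 of 10 in the control cluster passed the rule used to name clusters. Erythroid markers summed to 4.41 CPM in the exposed and 106 CPM in the control cluster. The part of either in the result was not tested. The log2 ratio of Atf3 was -0.49 here and -0.13 when cells were thinned to 1000 UMIs.

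In endothelium-like cells, 405 exposed and 459 control, Btg2 stood apart from the other members. It was at 211 CPM in exposed and 127 CPM in control cells, a ratio of 1.66 (1.30 to 2.11), held by 25.9% of exposed and 19.0% of control cells. Atf3 stood at 90.1 CPM in exposed and 126 CPM in control cells, a ratio of 0.713 (0.525 to 0.964). The other 8 had ratios between 0.908 for Junb and 1.15 for Jun, and Fosb, with 21 exposed and 22 control UMIs, was the only member under the minimum of 50 UMIs in all. The summed ratio of 1.03 (0.975 to 1.09) had limits that include 1. By level 6 of the 10 were higher, beside 58.2% of all genes, 1 by at least 1.25-fold, beside 13.7%, and 1 lower, beside 8.74%.

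Proximal tubule-like cells, 167 exposed and 441 control, gave few UMIs per member. Jun stood at 1135 CPM in exposed and 921 CPM in control cells, a ratio of 1.23 (1.09 to 1.39). Atf3 stood at 32.9 CPM in exposed and 72.6 CPM in control cells, from 11 and 64 UMIs, a ratio of 0.454 (0.216 to 0.868). The other 8 ratios had limits that include 1. On the log2 scale with 10 CPM added, 7 of 10 were higher, beside 51.5% of all genes. By at least 1.25-fold 1, Zfp36, was higher, beside 13.9%, and 2, Atf3 and Fosb, were lower, beside 14%. The medians in the proximal tubule-like and endothelium-like classes, 0.15 and 0.03, took the opposite sign under some of the other settings and ran from -0.13 to 0.15 and from -0.14 to 0.07.

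The mitochondria-rich tubule-like clusters carried the members at low CPM, on totals that include mitochondrial UMIs. The median thinned cell was 66.9% mitochondrial in the exposed and 63.5% in the control proximal tubule-like cluster. In the distal tubule-like class it was 64.7% in the exposed and 68.2% in the control cluster. This share lowers the CPM of other genes by construction, and levels over the remaining UMIs are not given here. In the proximal tubule-like one the members summed to 1565 CPM in 108 exposed cells and 1033 CPM in 75 control cells, and 2 of the 10 passed the minimum of 50 UMIs. Jun was 1 of them, at 519 CPM in exposed and 247 CPM in control cells. In the distal tubule-like one the sums were 1296 CPM in 120 exposed cells and 689 CPM in 82 control cells, and 5 passed. The antiproliferative Btg2 was among them, at 208 CPM in exposed and 61.0 CPM in control cells. Erythroid markers summed to 19431 CPM in the exposed and 6.48 CPM in the control cluster of that class, and their part in these values was not tested. In the unnamed mitochondrial cluster 0 of 10 passed.

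Within a cluster the members were spread more unevenly between cells than most genes. The Fano factor, variance over mean of equal-depth UMIs, is 1 for random sampling alone. In nephron cells its median over the members was 2.62 in the exposed and 2.23 in the control library, beside 1.04 over 5052 genes and 1.04 over 5079 genes. These genes were held by at least 5% of cells and were not matched to the members in level. The part of level in the difference was not tested. Fos was the most uneven member there, with 4.66 in exposed and 4.28 in control cells, and up to 24 and 23 UMIs in 1 thinned cell. The 10% of exposed nephron cells richest in Fos held 41.3% of its UMIs, and the 10% of control cells richest in it 45.1%. Atf3 was more concentrated still, with 81.0% of its UMIs in 10% of exposed and 85.3% in 10% of control nephron cells. Of the 10 members, 10 in the exposed and 9 in the control nephron cluster had a Fano factor of at least 1.5, beside 5.34% and 6.02% of genes. The members were chosen for how they vary between cells, so counts of this kind describe them only.

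In podocyte-like cells, most of which held Fos, its Fano factor was 8.07 in exposed and 6.36 in control cells, beside 4.80 in exposed and 7.08 in control macrophage and neutrophil-like cells. Jund was held by more of them, with a Fano factor of 2.22 in exposed and 2.30 in control cells. Of the 10 members, 9 in the exposed and 10 in the control podocyte-like cluster reached 1.5, beside 2.95% and 3.01% of genes. In stroma-like cells the median over the members was 2.69 in the exposed and 2.37 in the control library. Jun was the most uneven exposed member there, at 5.66 in exposed and 4.64 in control cells. All 10 members of both stroma-like clusters passed 1.5, beside 5.23% of genes in the exposed and 4.51% in the control library. Leaving out the 5 cells with most UMIs of each gene gave stroma-like medians of 2.37 in the exposed and 2.09 in the control library.

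The members varied together from cell to cell. All 45 pairs had a positive Pearson correlation of log2(UMIs + 1) in the nephron, podocyte-like, stroma-like, distal and endothelium-like clusters of both libraries. The median over the pairs was 0.28 in the exposed and 0.25 in the control nephron cluster, over 1871 and 3058 cells. In stroma-like cells it was 0.32 in the exposed and 0.28 in the control library, and in podocyte-like cells 0.35 and 0.37. These cells share a library and were thinned to 1 depth, and correlations of sparse counts are weakened by sampling. The other genes set beside the members below were held by at least 5% of cells and were not matched in level. Of the 45 pairs, 40 in the exposed and 39 in the control nephron cluster reached 0.2, beside 0.294% and 0.183% of pairs of a member with another gene. In stroma-like cells it was 38 in both, beside 0.412% in the exposed and 0.321% in the control library. In podocyte-like cells it was 42 in both, beside 0.847% and 0.976%. In distal cells it was 42 in the exposed and 32 in the control library, beside 0.357% and 0.273%. The endothelium-like counts were 38 and 27, beside 0.305% and 0.285%. Proximal tubule-like cells gave 30 in the exposed and 38 in the control library, beside 1.67% and 0.478%, and macrophage and neutrophil-like cells 27 and 32, beside 5.1% and 2.85%. Since the members were chosen for how they vary between cells, these counts describe them only.

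The correlation of Fos with Junb was the highest of the 45 when averaged over the 12 clusters of the 6 named classes with at least 100 thinned cells in each library, at 0.519, and ranged from 0.410 to 0.651. Fos with Egr1 averaged 0.486 and Fos with Jun 0.461. In exposed stroma-like cells Fos and Junb occurred together in 45.5% of cells, beside 33.5% from their separate shares, and in control cells in 47.5%, beside 36.6%. At the other end Jund with Zfp36 averaged 0.157, and Atf3 with Zfp36 0.173. By member, the mean of each gene's median correlation with the other 9 ran from 0.373 for Junb and 0.372 for Fos to 0.237 for Zfp36 and 0.228 for Atf3. Jund stood between these ends at 0.264, as did Fosb at 0.251.

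**Figure D3:**
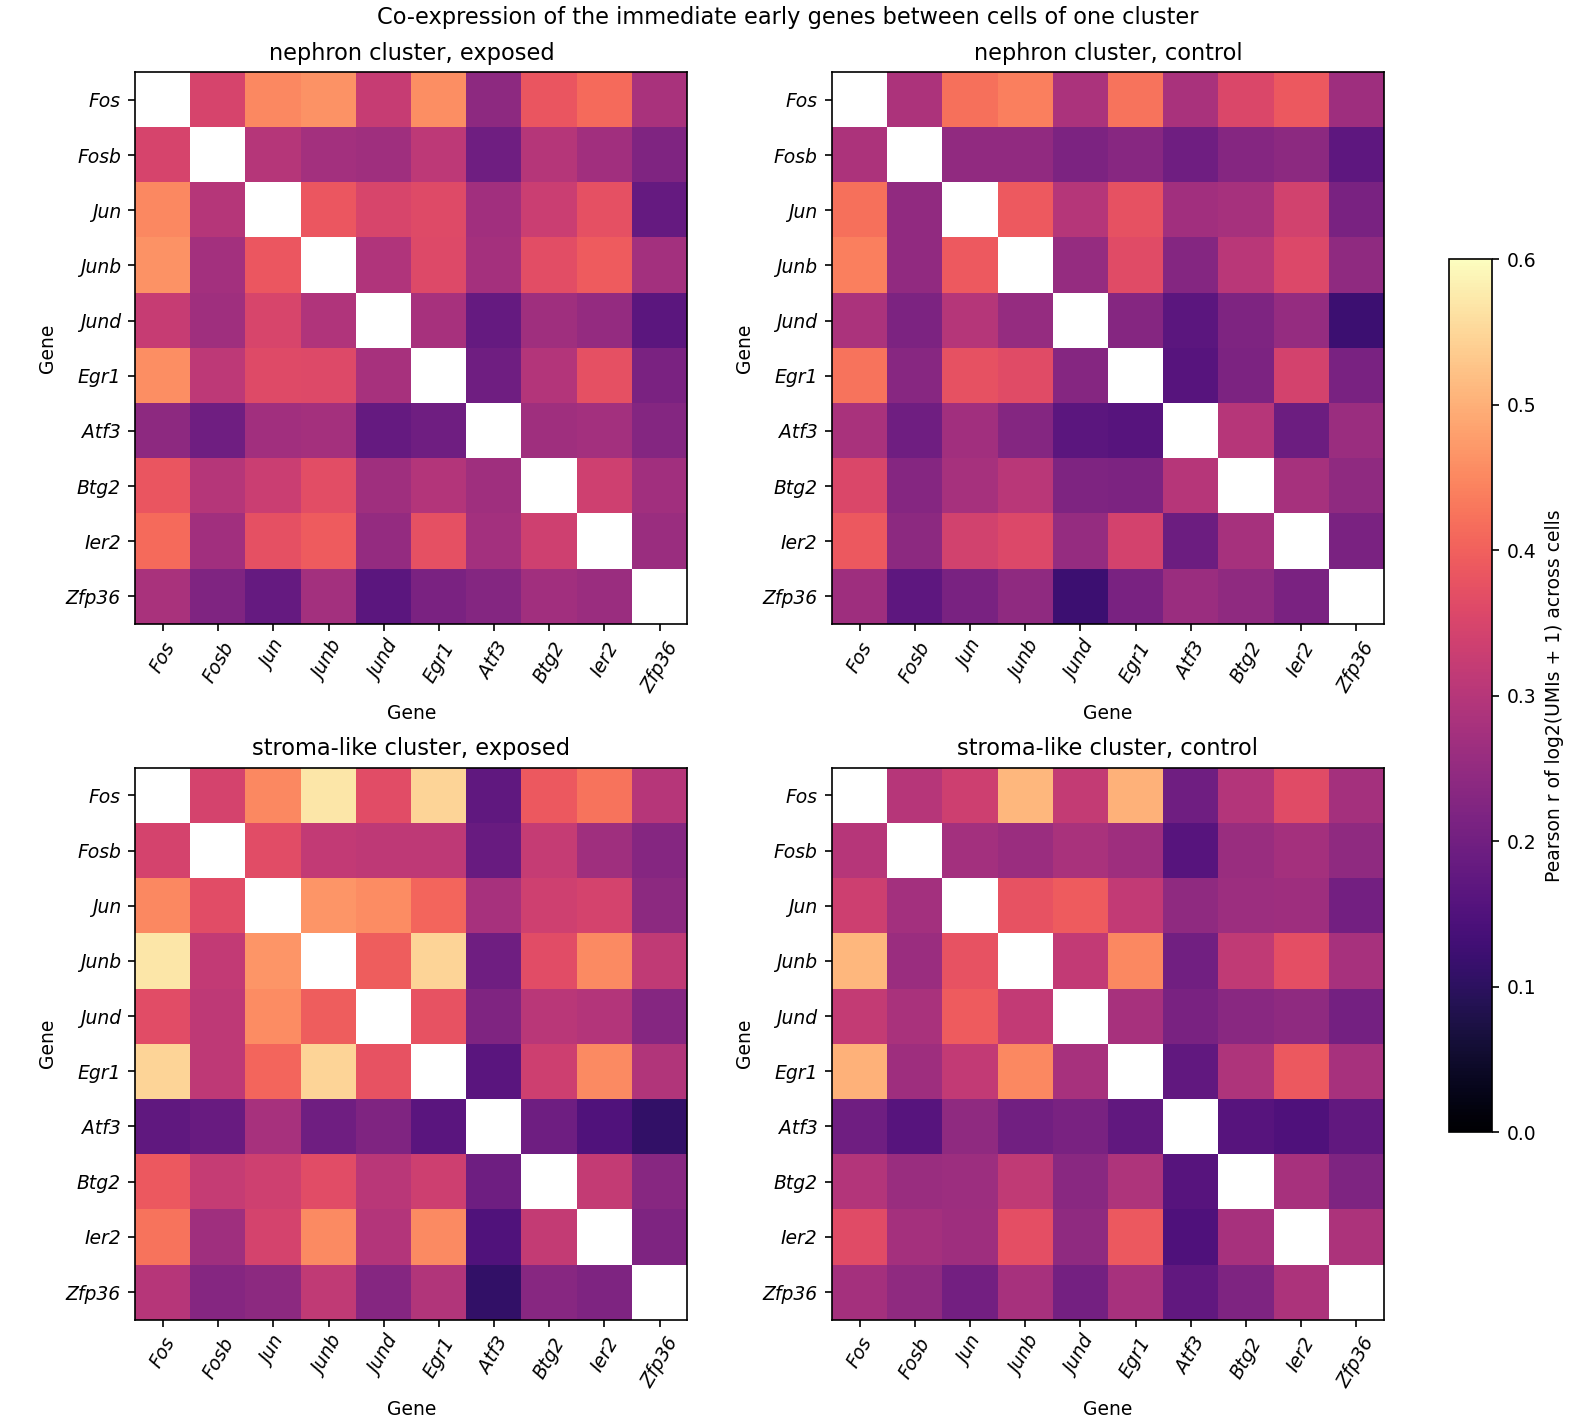
Pearson correlation of log2(UMIs + 1) between pairs of the 10 genes across cells, for the nephron cluster (top) and the stroma-like cluster (bottom), exposed library left and control library right; the colour scale runs from 0 to 0.6. The brightest cells join Fos with Junb, Egr1 and Jun, and the rows of Atf3 and Zfp36 are among the darkest.

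Counting how many of the 10 members a cell held showed cells with few and cells with many in the same cluster. Exposed nephron cells held 4.93 members on average, with a standard deviation between cells of 2.48, and control nephron cells held 4.42, with 2.47. Were the members detected independently at their own shares, the standard deviations would be 1.43 and 1.45. None of the 10 was found in 3.47% of exposed and 5.56% of control nephron cells, where independence gives 0.0440% and 0.154%. At least 7 were found in 29.0% of exposed and 22.3% of control cells, where independence gives 13.3% and 7.32%. The distribution was therefore wider at both ends than separate shares give, in both libraries. The members were chosen for how they vary between cells and their pairs correlated positively, so this width describes them only. Other sets of genes were not counted in this way, and the part of mixed cell types within the cluster was not tested.

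In stroma-like cells the mean was 3.93 members in exposed and 4.18 in control cells. None was found in 11.6% of exposed and 9.75% of control stroma-like cells, and at least 7 in 20.5% and 22.3%. Podocyte-like cells held 5.30 members in the exposed and 5.10 in the control library, and cells without any member made up 0.485% and 1.47%. Macrophage and neutrophil-like cells held 5.64 members in the exposed and 4.74 in the control library. Distal tubule and intercalated cell-like cells held 3.08 in the exposed and 1.83 in the control library, and 16.5% and 31.9% of them held none. Endothelium-like cells held 2.69 and 2.73, and proximal tubule-like cells 2.95 and 2.70.

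**Figure D4:**
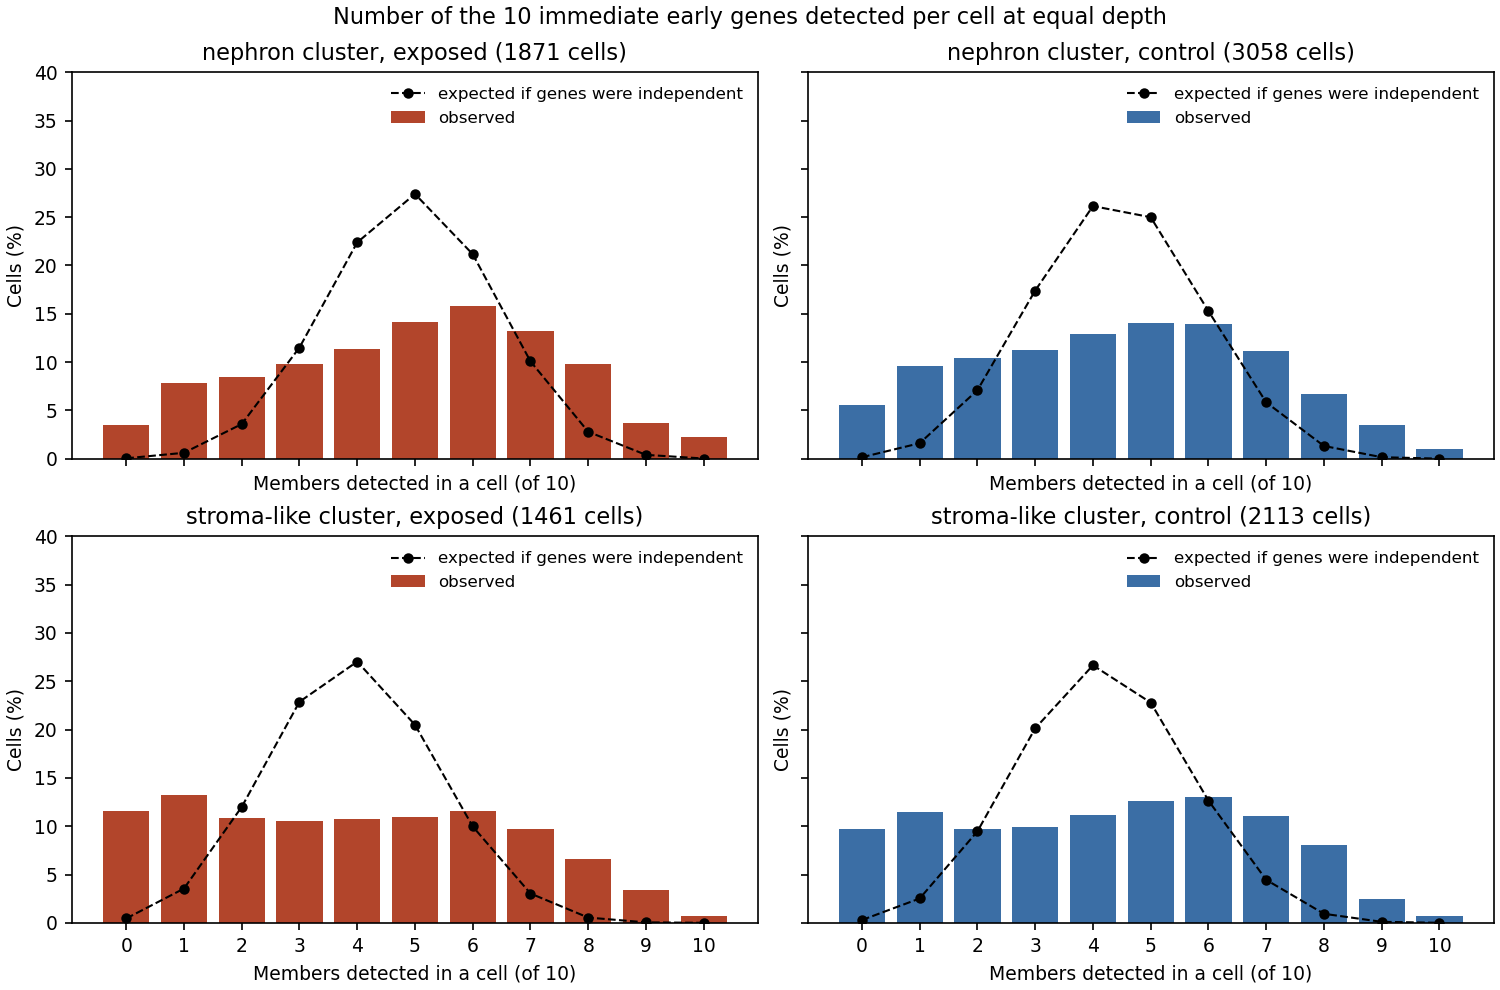
Percent of cells by the number of the 10 genes detected at 2000 UMIs per cell, nephron cluster on top and stroma-like cluster below, exposed library left and control library right; bars are observed, dashed lines the shares expected if the genes were detected independently. In every panel the bars are flatter and wider than the dashed line.

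Depth and mitochondrial share varied between the cells compared, so the number of members was also read within narrower bands. Among nephron cells with under 5% mitochondrial UMIs the mean was 4.92 members in 970 exposed and 4.41 in 657 control cells. From 5% to 10% it was 4.95 in exposed and 4.61 in control cells, and from 10% to 25% it was 5.10 and 4.12. Nephron cells of 3000 to 6000 UMIs before thinning held 4.97 members in the exposed and 4.42 in the control library, and cells of 2000 to 3000 UMIs held 4.11 in 83 exposed and 4.30 in 377 control cells. Among stroma-like cells with under 5% mitochondrial UMIs the means were 4.24 in exposed and 4.29 in control cells. From 5% to 10% they were 3.50 in exposed and 4.19 in control stroma-like cells, and from 10% to 25% they were 3.10 in exposed and 4.10 in control cells. Stroma-like cells of 2000 to 3000 UMIs held 3.25 members in the exposed and 3.95 in the control library, those of 3000 to 6000 UMIs 4.03 and 4.36, and those above 6000 UMIs 4.65 and 4.44. Across nephron cells the number of members correlated with the mitochondrial percent at -0.04 in the exposed and -0.15 in the control library. Mitochondrial UMIs count toward each thinned total, which lowers this correlation by construction.

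Other genes of the early response were read as a list of 37, of which 34 were measured in nephron cells and in stroma-like cells. Of these, 20 were higher and 14 lower in exposed than in control nephron cells, beside 51.2% of all genes that were higher. Their median log2 ratio was 0.08. By at least 1.25-fold 2 were higher, beside 2.28% of all genes, and 4 lower, beside 5.33%. Cyr61, a secreted matricellular early response protein, stood at 673 CPM in exposed and 464 CPM in control nephron cells. In stroma-like cells 10 were higher, beside 55.4% of all genes, and 24 lower, with a median of -0.11. Of the list, 9 were lower by at least 1.25-fold, beside 3.73% of all genes. By that fold 2, Cyr61 and the matricellular gene Ctgf, were higher, beside 4.69%. Socs3, a feedback inhibitor of cytokine signalling, stood at 150 CPM in exposed and 241 CPM in control stroma-like cells. In distal cells 16 of 20 measured list genes were higher, beside 65.6% of all genes, and 11 by at least 1.25-fold, beside 27%. In podocyte-like cells 14 of 20 were higher, beside 52.6% of all genes, and 7 by at least 1.25-fold, beside 12.7%. AP-1 partners and regulators that are not immediate early, such as the kinase gene Mapk8, had medians of -0.03 over 12 genes in nephron cells and -0.01 over 13 genes in stroma-like cells, and 0 reached 1.25-fold in either direction.

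Genes whose pattern between cells was most like the members were largely heat shock chaperones and other early response genes. Likeness was the mean, over 15 clusters with at least 100 thinned cells, of a gene's correlation with the number of members detected, for 4723 other genes held by at least 5% of cells. Its median over these genes was 0.00, and 1.72% reached 0.1. Hspa1a, the stress-inducible Hsp70, was first at 0.515, with 0.360 to 0.694 over the clusters, followed by the inducible Hsp90 gene Hsp90aa1 at 0.477 and the second inducible Hsp70 gene Hspa1b at 0.464. Hspa1a and Hspa1b are near-identical copies whose reads may not be separable. Cyr61 came next at 0.419, and the constitutive Hsp70 gene Hspa8 stood at 0.399. The first 10 also held the Hsp40 cochaperones Dnajb1 and Dnaja1, the early response factor Klf6 and the phosphatase gene Dusp1, between 0.397 and 0.318. Of the 40 genes most like the members, 17 belonged to the 27 further early response genes measured for likeness, 12 to the 12 heat shock chaperones and 0 to the 10 AP-1 partners and regulators. At the low end stood mitochondrially encoded genes, with mt-Nd1, a subunit of respiratory complex I, at -0.16. Their UMIs take part of each thinned total, which lowers these values by construction.

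**Figure D5:**
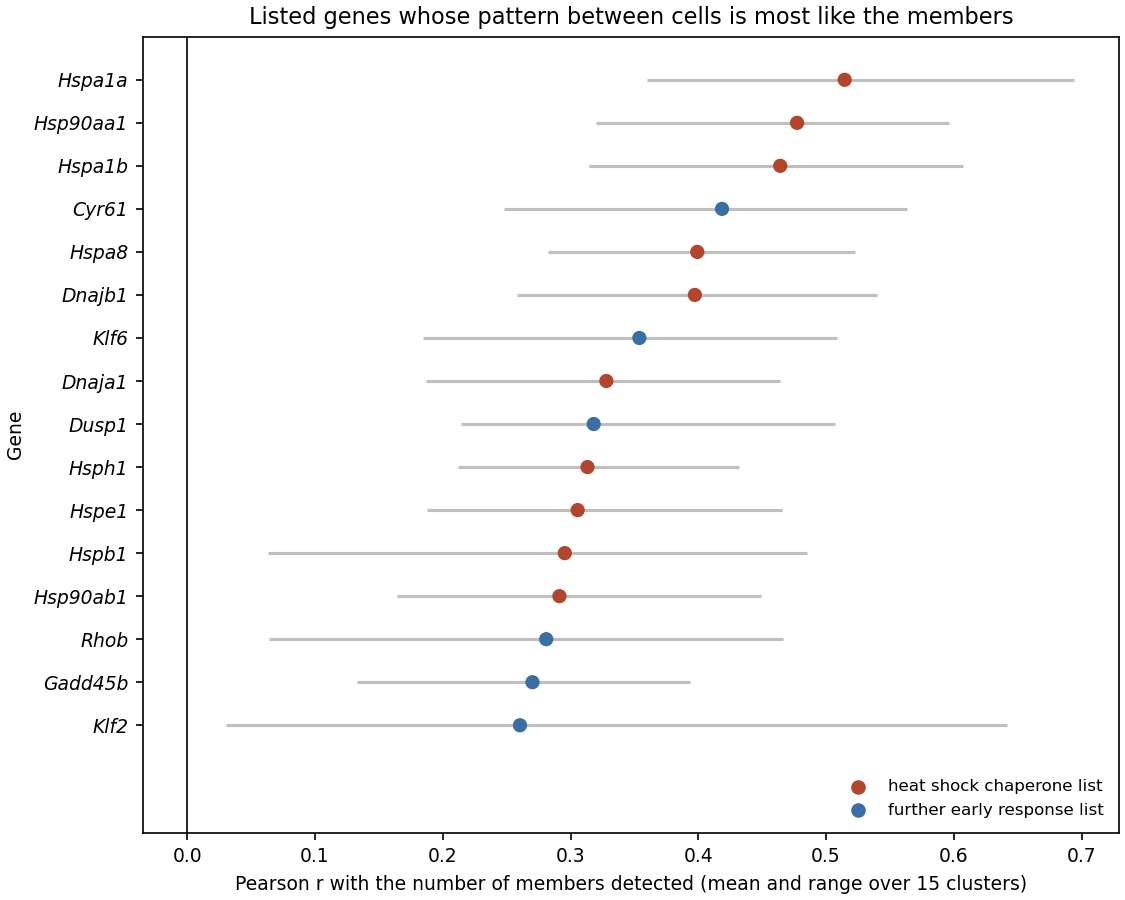
Genes of the heat shock chaperone and further early response lists that are among the 20 genes most like the members, ordered from the top, by Pearson correlation with the number of members detected in a cell; points are means over 15 clusters of both libraries, lines the range, and colours the gene lists. Hspa1a leads at 0.515, and the chaperones Hsp90aa1 and Hspa1b follow it.

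Heat shock chaperones were also read between the libraries. Across cells, the correlation of the number of members with the summed chaperones was 0.485 in exposed and 0.486 in control nephron cells, and 0.728 and 0.624 in stroma-like cells. The chaperones' median log2 ratio of exposed over control was 0.28 in nephron, 0.44 in distal, 0.28 in macrophage and neutrophil-like, 0.09 in podocyte-like, 0.03 in stroma-like, 0.01 in proximal tubule-like and -0.07 in endothelium-like cells. The members' medians in the same order of classes were 0.37, 0.99, 0.47, 0.23, 0.04, 0.15 and 0.03. In proximal tubule-like cells 3 of 12 chaperones were lower by at least 1.25-fold, beside 14% of all genes there, and 0 were higher by that much, beside 13.9%. Hspa1a stood at 2961 CPM in exposed and 2156 CPM in control nephron cells. In nephron cells 11 of 12 chaperones were higher in the exposed library, beside 51.2% of all genes there. Of the 12, 5 were higher by at least 1.25-fold, beside 2.28%. The part of RNA made during handling in these differences was not tested.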

How the data were processed

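Whole kidney of postnatal day 2 mice was profiled with the 10x Genomics Chromium 3′ kit, per the labels' protocols. Per the submitters' processing notes, the tools included Cell Ranger 2.2.0 and the build was mm10. The authors deposited raw UMI counts per gene and cell. The authors' table of cells gives, per the file headers, the mitochondrial percent of each cell, a hybrid doublet score and a cluster number; the sources used here do not give how clusters were made or cells chosen. No doublet caller was run; cells with a hybrid score over 1, computed by the authors and deposited (277 exposed and 584 control), were left out as an alternative.

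The members, gene lists and marker lists were chosen with earlier results of these data known. Clusters were named from lists with at least 3 fixed markers held by at least 10% of cells at 2 or more times the level of other cells. Mixed names were used for some mixed clusters, but not every list that passed is in a name. Collecting duct markers also passed in both distal clusters (9 exposed and 4 control), the control nephron cluster and the exposed mitochondria-rich distal cluster. Other lists left out were pericyte, smooth muscle and renin cell in both stroma-like clusters and stroma in both podocyte-like clusters. Loop and distal tubule in the control nephron cluster and differentiating nephron in the control proximal tubule-like cluster were also left out. Each cell was thinned without replacement to 2000 UMIs over the 8930 shared genes, leaving out 529 exposed and 1484 control cells. UMIs were summed per class and library and scaled to CPM. Log2 ratios add 10 CPM to each value, which understates differences of low genes; single ratios add nothing. Limits are Clopper-Pearson for shares, Newcombe for differences of shares, exact Poisson for CPM and exact conditional binomial for ratios. They treat each UMI as independent and leave out the spread between cells and between animals.

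All 10 members are named, with the genes among the 10 of highest mean correlation with the number of members detected, except 1 that is not reported here. Other genes named were picked from the lists after their values were seen. Python 3.11.15, numpy 2.4.6, scipy 1.17.1 and pandas 2.3.3 were used, and the steps were tested on simulated data. Alternatives covered depth, seed, mitochondrial genes and cells, doublet score, pseudocount, low-count minimum, extreme cells, class mix and correlation type.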

Additional observations from a re-analysis of the deposited data

Results flagged for a closer look

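The ratios of 2 members pointed in opposite directions in different classes, with limits for counting error clear of equality on both sides. Those limits treat each UMI as independent. For both genes the higher side is the distal class, where every member was higher in the exposed cluster. Class make-up and group cannot be told apart there. The stress-induced factor Atf3 had a log2 ratio of exposed over control of -0.94 in proximal tubule-like cells and 0.76 in distal tubule and intercalated cell-like cells. In proximal tubule-like cells it rested on 11 exposed and 64 control UMIs. Its equal-depth shares differed by -2.01 percentage points (-5.62 to 2.80) there and by 3.75 (-0.04 to 7.76) in distal cells. Both sets of share limits include equality. The RNA decay factor Zfp36 had a log2 ratio of -0.32 in stroma-like cells and 0.88 in distal tubule and intercalated cell-like cells. Its equal-depth shares differed by -4.61 percentage points (-7.34 to -1.82) in the stroma-like and 6.38 (1.83 to 11.1) in the distal class. With 1 library per group, neither difference between classes was tested.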

How the results depend on the processing

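Every alternative that was planned was run, and 3 were added after seeing the data: leaving out cells with duct or distal markers, leaving out cells with macrophage or neutrophil markers, and keeping cells of 3000 to 6000 UMIs. Leaving out cells with macrophage or neutrophil markers left no macrophage and neutrophil-like cell and gave no value there. No paired analysis was possible because each group had 1 library. The members' median log2 ratio of exposed over control stayed positive under every alternative run in all cells (0.22 to 0.35), nephron (0.33 to 0.44), distal (0.99 to 1.16), podocyte-like (0.18 to 0.65) and stroma-like cells (0.01 to 0.09). In all cells it was 0.22 without cells over 25% mitochondrial UMIs and 0.24 with mitochondrially encoded genes left out of the total. In podocyte-like cells it was 0.40 at 3000 UMIs per cell and 0.65 in cells of 3000 to 6000 UMIs; the cause was not tested. The measures of detection, spread and correlation depend on depth by construction. Mean members per cell, 3.95 in exposed and 3.63 in control cells, were 2.79 and 2.49 at 1000 UMIs, 4.71 and 4.36 at 3000 UMIs, 5.00 and 4.44 without thinning, 4.29 and 4.11 without cells over 25% mitochondrial UMIs, 4.41 and 4.19 without mitochondrial genes, and 3.90 and 3.56 without cells of hybrid score over 1. The nephron median Fano factor, 2.62 in exposed and 2.23 in control cells, was 1.81 and 1.62 at 1000 UMIs, 3.27 and 2.64 at 3000 UMIs, 7.49 and 5.63 without thinning, and 2.37 and 2.11 without the 5 cells with most UMIs of each gene. The stroma-like one, 2.69 and 2.37, was 1.89 and 1.77 at 1000 UMIs, 3.33 and 2.85 at 3000 UMIs, 4.66 and 3.56 without thinning, and 2.37 and 2.09 without those 5 cells. The nephron median correlation, 0.283 in exposed and 0.254 in control cells, was 0.204 and 0.180 at 1000 UMIs, 0.348 and 0.290 at 3000 UMIs, and 0.507 and 0.479 without thinning. The stroma-like one, 0.317 and 0.275, was 0.243 and 0.208 at 1000 UMIs and 0.448 and 0.378 without thinning. The 10 genes most like the members were the same under both alternatives of that measure. Differences of under 50 UMIs, as for Fosb in endothelium-like cells, are beyond this depth, and 1 library per group limits every comparison.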
